A study of Homo sapiens with 32 samples.

Results

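The solute carriers (SLC) are the largest superfamily of membrane transporters, and the members described here are all symbols that consist of SLC, a family number, a letter and a member number and that reached at least 1 TPM (a length-normalised share of a library's transcripts) in at least 6 of 32 libraries. Of 358 such symbols in a table of 19345, 196 passed. Of those left out, 42 were listed at 0 in all libraries and 120 had some signal. All 196 were among the 12221 genes tested, which passed the same rule. The members were thus chosen by their transcript level in these libraries, so presence above 1 TPM is a description and not a finding. No member sat at exactly 6 libraries, the members closest to the limit (SLC5A1, SLC5A10 and SLC35G5) reached 1 TPM in 7 libraries, and 3 symbols just outside it (SLC25A13, SLC16A14 and SLC43A1) did so in 5, with highest values of 1.9, 1.4 and 1.4 TPM. For 16 members the limit was met only with the help of the group in which they were highest, so their difference from the other groups was partly fixed by the choice. The 16 were SLC5A1, SLC5A10, SLC37A1, SLC45A3, SLC7A4, SLC38A6, SLC43A2, SLC10A6, SLC16A9, SLC16A11, SLC39A8, SLC25A20, SLC35G1, SLC35G5, SLC23A1 and SLC47A2. The other 180 passed without that group. Some of these, such as SLC6A14 and SLC29A4, would not have passed without the D11 libraries, treated and untreated.

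Solute carriers move sugars, amino acids, ions, metals, lipids, vitamins and metabolites across the plasma membrane and the membranes of organelles, some by facilitated diffusion and others coupled to sodium, protons or a counter-solute. A stratified squamous epithelium such as that of the esophagus has no vessels of its own, and its upper layers depend on carriers for fuel and for the export of lactate and acid. Esophageal epithelium also meets refluxed acid, which its sodium-hydrogen exchangers and bicarbonate carriers help to buffer, and a human zinc carrier of the intestine and skin, SLC39A4, is known for its role in acrodermatitis enteropathica. Members were sorted by substrate, from family knowledge, into 15 carriers of glucose and other sugars, 28 of amino acids and peptides, 23 of ions and pH, 17 of zinc, 7 of lipids, 8 of lactate and other monocarboxylates, 4 of other metals, 37 mitochondrial carriers, 28 of nucleosides and nucleotide sugars, 25 of vitamins and organic ions, and 4 others.

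All libraries came from EPC2, a human esophageal epithelial line immortalised with telomerase (hTERT), without any other engineered change, so all groups share the line and the telomerase and no group shows variation between people. The 6 IL-13 libraries were from day 11 (D11) Matrigel spheroids kept with the type 2 cytokine interleukin 13 at 20 ng/ml from day 3 to day 11. The 7 untreated (UT) D11 libraries were from spheroids of the same age without the cytokine, the 9 D3 libraries from spheroids at day 3, and the 10 D0 libraries from flat monolayers. Spheroids were started from 40000 cells in a 20 µl Matrigel droplet and fed serum-free keratinocyte medium at 0.6 mM CaCl2. The labels name 2 batches, described as independent experiments, with 5 and 5 monolayer, 4 and 5 D3, 4 and 3 untreated D11 and 5 and 1 IL-13 libraries. A monolayer also differs from a spheroid in its matrix and medium, so 3D growth and culture conditions cannot be told apart. Nothing says that libraries of 1 batch came from separate cultures, so p-values measure the spread between libraries, which may be technical.

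All 6 markers of basal and squamous epithelium (KRT5, KRT14, TP63, KRT4, KRT13 and IVL) were tested, and they summed to 19033.1 to 23736.7 TPM in monolayers and 46234.8 to 83540.1 TPM in spheroids. The basal keratins made up most of this (KRT5 from 12359.6 to 44331 TPM), TP63 lay at 10.4 to 26.1 TPM, and in monolayers KRT4 was listed at 0, KRT13 at 0 to 0.4 TPM and IVL at 0 to 1.4 TPM. With IL-13, KRT4 measured 484.7 to 1034.5 TPM, against 12.3 to 17.7 TPM without, and IVL 45.2 to 184.2 TPM, against 335.5 to 578.5 TPM without. The endothelial markers PECAM1, VWF and CDH5 summed to at most 0.3 TPM. Of 6 fibroblast markers 1 was tested, COL1A1, and the sum of the list was 22 to 46.9 TPM with IL-13 and 57.9 to 78.1 TPM without, with COL1A2 and COL3A1 listed at 0 in every group. Of 5 immune markers 2 were tested, CD68 and CD14, with sums of 339 to 467 TPM with IL-13, 440 to 505 TPM without, and 134 to 250 TPM in the earlier groups. The columnar, goblet and ciliated list summed to 4.2 to 11 TPM in monolayers and to at most 0.8 TPM in spheroids. Mitochondrially encoded transcripts took 44.8 to 50.1% of the TPM in monolayers, 39.1 to 57.1% in D3, 14.8 to 27.9% in untreated D11 and 13.2 to 25.6% in IL-13 libraries. The D3 libraries stood in 2 sets by SPRR1A, a cornified envelope gene, which measured 3931 to 4769 TPM in 5 of them (1, 3, 4, 5 and 6) and 191 to 559.8 TPM in the remaining 4 (2, 7, 8 and 9), so that library 4 of batch 1 and library 7 of batch 2 went against their batch. IL-13 library 1 also stood apart, at 78.2 on the first principal component against 49.4 to 56.7 for the other IL-13 libraries. Counts from fits without D3 libraries 4 and 7, without IL-13 library 1 and without the mitochondrially encoded genes are given below. The part of the other differences in the results was not tested. In bulk RNA, fewer cells of a type and less RNA per cell cannot be told apart.

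The 196 members together took 0.595 to 0.766% of the TPM in D3 spheroids, against 0.743 to 0.845% in monolayers, and 0.628 to 0.789% with IL-13, against 0.619 to 0.702% in untreated D11 spheroids. Within that share the makeup changed. Sugar carriers held a median of 4.8% of the SLC transcripts in monolayers, 7.05% in D3 and 15.1% in untreated D11 spheroids. Amino acid carriers held 30.6, 24.5 and 20.6% in the same order, and ion and pH carriers 4.81, 2.45 and 1.84%. With IL-13 the shares were 11.9, 16.6 and 2.85% for sugars, amino acids, and ions and pH, against 15.1, 20.6 and 1.84% in untreated D11 spheroids. Because each share is a ratio within a library, it shows unequal change and not which class moved. A share can also follow a single member. Sugar carriers summed to 346 to 430 TPM in monolayers and 920 to 1065 TPM in untreated D11 spheroids. SLC2A1 alone made up 64.4 to 74.4 TPM and 557 to 688 TPM of these.

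**Figure D1:**
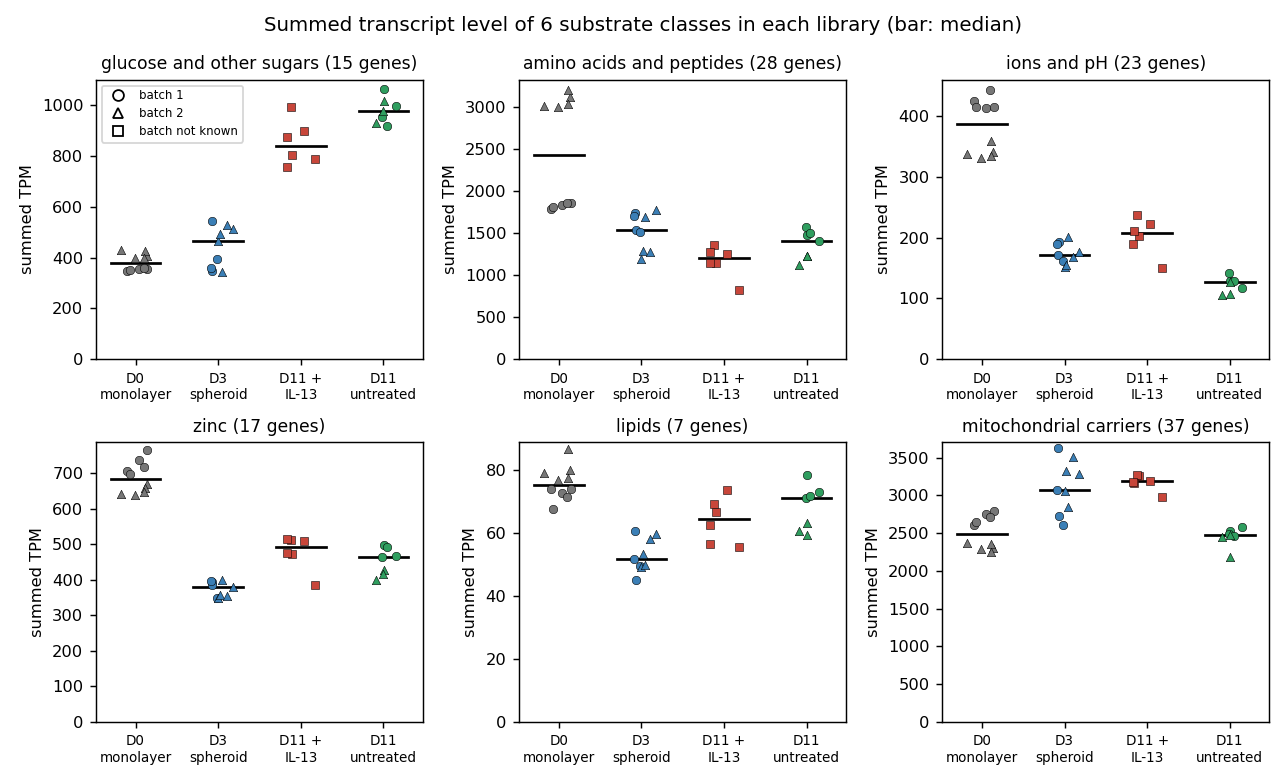
Summed transcript level (TPM, linear axis from 0) of 6 substrate classes in each library, in D0 monolayers, D3 spheroids, D11 spheroids with IL-13 and untreated D11 spheroids. Points are libraries, shapes are batches, and bars are medians. Untreated D11 libraries sum to 920 to 1065 TPM for the 15 sugar carriers, above all monolayer libraries at 346 to 430 TPM. SLC2A1 alone makes up 557 to 688 TPM and 64.4 to 74.4 TPM of these sums. Monolayer libraries of the amino acid class fall into 2 sets by batch.

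Changes below are differences of log2(TPM + 1) with their standard error (SE), from 1 limma fit over the 12221 genes with group and batch as terms, called at a Benjamini-Hochberg adjusted p under 0.05. This scale understates the change of low genes. Levels are the lowest, the highest and the median library of a group, and gene positions are those of GENCODE on hg38, found for 192 of the 196. Rescaling each library by median of ratios moved the median difference of all genes by 0.433 for D3 against monolayer, 0.041 for untreated D11 against D3, 0.476 for untreated D11 against monolayer and -0.192 for IL-13 against untreated D11. Values after this rescaling follow in words where they are given, and a call that it ends is stated.

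In D3 spheroids against monolayers, 23 of 196 members were higher (11.7%, against 12.7% of all genes tested) and 145 were lower (74%, against 68.2%), with a median difference of -0.56 against -0.44 over all genes. After rescaling 55 were higher and 82 lower, against 33.2% and 33.1% of all genes. The libraries of the groups did not overlap for 96 members (49%, against 44.3% of all genes). In untreated D11 against D3 spheroids, 53 were higher (27%, against 33.6%) and 90 lower (45.9%, against 35.8%), with a median of -0.18 against -0.02. Here rescaling left 62 and 88 calls (37.8% and 35.3% of all genes), while taking out the mitochondrially encoded genes, whose share fell between these groups, gave 19 and 140 (13.6% and 65.7% of all genes). Libraries did not overlap for 83 members (42.3%, against 38.0%).

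Over the whole course, untreated D11 spheroids had 30 members higher than monolayers (15.3%, against 21.0%) and 135 lower (68.9%, against 63.5%), or 56 and 101 after rescaling (40.1% and 40.2% of all genes). Libraries did not overlap for 128 (65.3%, against 58.7%). With IL-13, 73 were higher than in untreated D11 spheroids (37.2%, against 39.2%) and 27 lower (13.8%, against 8.49%), and 96 were not called. Rescaling turned that split to 39 higher and 49 lower (19.2% and 20.6% of all genes), with 39 higher and 27 lower on both scales. Libraries did not overlap for 27 members (13.8%, against 13.7%). Without the mitochondrially encoded genes, 25 members were higher and 143 lower in D3 spheroids than in monolayers (13.3% and 66.3% of all genes), 18 higher and 167 lower in untreated D11 spheroids than in monolayers (12.1% and 78.7%), and 52 higher and 24 lower with IL-13 than without (29.7% and 7.80%). A share near that of all genes is no result about the members, and the widest gap as deposited was in the lower calls of untreated D11 against D3 spheroids.

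**Figure D2:**
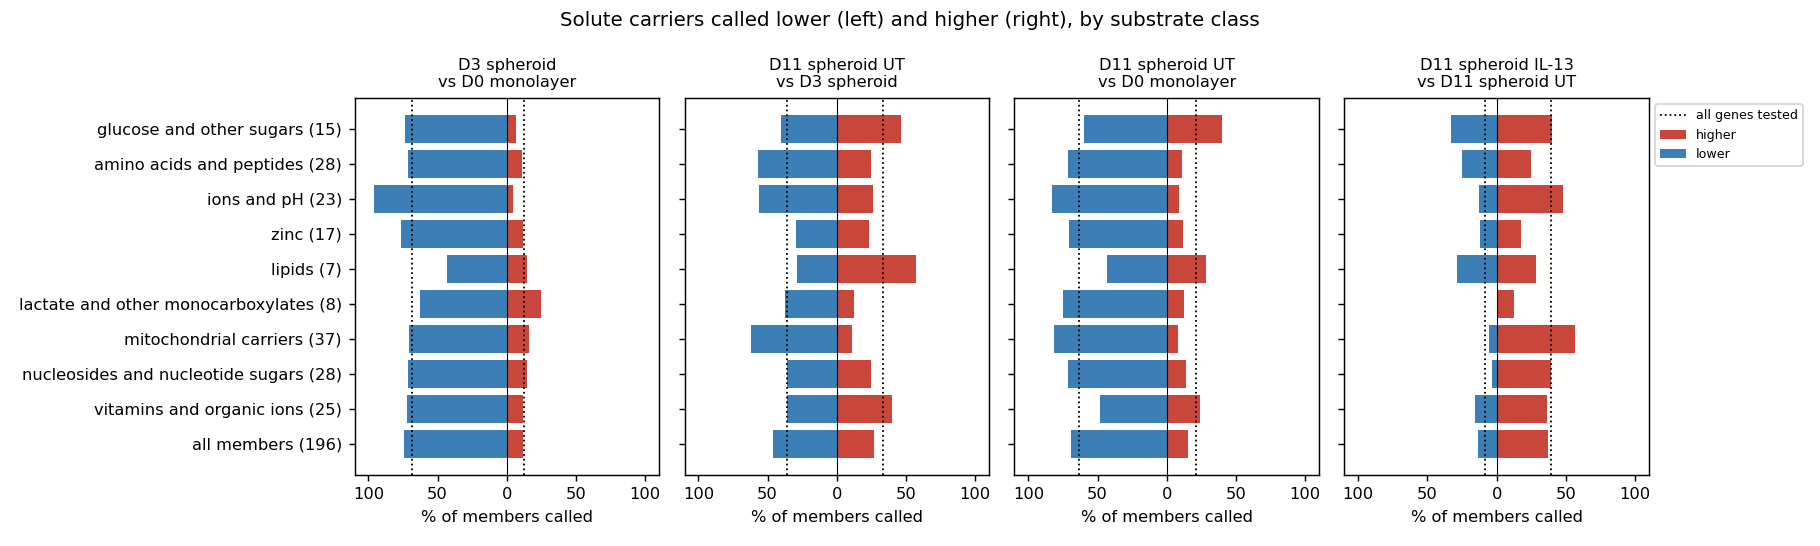
Share of the members of 9 substrate classes and of all 196 members called lower (to the left) and higher (to the right) in each of 4 comparisons, in percent of the class, with the number of members in parentheses. Dotted lines mark the share of all 12221 genes tested. Of the 23 ion and pH carriers, 95.7% are lower in D3 spheroids than in monolayers, and 47.8% are higher with IL-13 than without.

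Glucose carriers moved in both directions. SLC2A1 (GLUT1, chr1:42925375-42959176, minus strand), the basal glucose carrier of most cells, rose at each step of spheroid growth, SLC2A3 (GLUT3), a glucose carrier of high affinity, rose late, and SLC2A6 (GLUT6), which sits on internal membranes, fell to near 0. SLC2A1 measured 64.4 to 74.4 TPM (median 70.2) in monolayers, 169 to 333 TPM (median 288) in D3 and 557 to 688 TPM (median 635) in untreated D11 spheroids. No library of 1 group reached into the next. The log2 difference was 1.81 ± 0.11, 2.34 after rescaling for D3 against monolayer (limma adjusted p = 5.5e-15) and 1.31 ± 0.13 for untreated D11 against D3 (limma adjusted p = 1.2e-10). Within batches 1 and 2 the D3 difference was 1.62 and 1.98, and the D3 libraries themselves ranged widely.

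SLC2A3 measured 16.4 to 31.8 TPM (median 23.1) in monolayers, 10.2 to 17.4 TPM (median 13.9) in D3 and 84.3 to 118 TPM (median 107) in untreated D11 spheroids. The D11 libraries stood far above both earlier groups, at a log2 difference of 2.88 ± 0.13 against D3 (limma adjusted p = 5.6e-18). Its fall at D3 (-0.76 ± 0.12) was not called after rescaling. SLC2A6 measured 50.2 to 72.9 TPM (median 63.8) in monolayers, 3.1 to 9.7 TPM (median 5.3) in D3 and 0.3 to 1.3 TPM (median 0.5) in untreated D11 spheroids, again without overlap. It had the largest fall of the 196 members over the course, -5.28 ± 0.16, -4.84 after rescaling for untreated D11 against monolayer (limma adjusted p = 2.7e-23), and was near equal in size in both batches (-5.27 and -5.30). At their medians, SLC2A1 and SLC2A6 stood at 70.2 and 63.8 TPM in monolayers and at 288 and 5.3 TPM in D3 spheroids.

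SLC5A10 and SLC5A1, both sodium-coupled, were low in every group. SLC5A10 (SGLT5), a carrier of mannose and fructose, measured 0.1 to 0.5 TPM (median 0.2) in D3 and 1.7 to 3.1 TPM (median 2.6) in untreated D11 spheroids. SLC5A1 (SGLT1), the intestinal glucose carrier, was listed at 0 in all monolayers and measured 0 to 0.2 TPM (median 0.1) in D3 and 1 to 1.5 TPM (median 1.2) in untreated D11 spheroids. The untreated D11 libraries of both lay above all D3 libraries, with log2 differences of 1.53 ± 0.078 and 1.06 ± 0.046. Both are among the members that passed the limit only through the D11 group, so that this difference was partly fixed by the choice. SLC5A2 (SGLT2), a sodium-glucose carrier of kidney named here after its values were seen, was present throughout. It measured 6 to 19 TPM (median 11.2) in monolayers, 6.4 to 8.3 TPM (median 7.5) in D3 and 5.4 to 13.3 TPM (median 7) in untreated D11 spheroids. Its IL-13 libraries measured 11.2 to 19.8 TPM, which overlapped the untreated range.

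With IL-13, 6 of the 15 sugar carriers were called higher and 5 lower. SLC2A1, SLC2A3, SLC5A10 and SLC5A1 were among the lower ones, and SLC45A4 among the higher ones. SLC2A1 measured 335 to 553 TPM (median 465) with IL-13, against 557 to 688 TPM (median 635) without. The IL-13 libraries all lay below the untreated ones, at -0.43 ± 0.14, -0.68 after rescaling (limma adjusted p = 0.013). SLC2A3 measured 42.1 to 94.7 TPM (median 59.2) with IL-13, against 84.3 to 118 TPM (median 107) without, and here 1 IL-13 library reached into the untreated range (log2 difference -0.63 ± 0.15, -0.88 after rescaling, limma adjusted p = 8.2e-04). SLC5A10 measured 0.4 to 0.9 TPM (median 0.7) with IL-13, against 1.7 to 3.1 TPM (median 2.6) without (-1.03 ± 0.088, -1.21 after rescaling). SLC5A1 measured 0.3 to 0.4 TPM (median 0.3) with IL-13, against 1 to 1.5 TPM (median 1.2) without (-0.75 ± 0.052, -0.88 after rescaling). Neither gene showed overlap, but both passed the limit only through the untreated D11 group, so these falls were partly fixed by the choice. SLC45A4, placed with the sugars by its family, measured 0.5 to 2.4 TPM (median 2.25) with IL-13, against 0.3 to 0.5 TPM (median 0.4) without (1.01 ± 0.12, 0.91 after rescaling, limma adjusted p = 5.5e-08). Its 1 IL-13 library in the untreated range was library 1. The comparisons of untreated D11 with D3 and with IL-13 share the untreated D11 libraries, so an opposite sign in the 2 is no independent evidence. Against monolayers, 6 of the 15 were higher and 9 lower in untreated D11 spheroids (40% and 60%, against 21.0% and 63.5% of all genes). The class median was -0.56, against -0.48 over all genes, and after rescaling 6 were higher and 6 lower (40.1% and 40.2% of all genes). Over the class of 15, 7 were higher and 6 lower in untreated D11 than in D3 spheroids (46.7% and 40%, against 33.6% and 35.8% of all genes). Counts without the mitochondrially encoded genes were 5 and 8 (13.6% and 65.7% of all genes). With IL-13, 6 were higher and 5 lower than without (40% and 33.3%, against 39.2% and 8.49% of all genes). After rescaling these were 3 and 5 (19.2% and 20.6% of all genes).

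**Figure D3:**
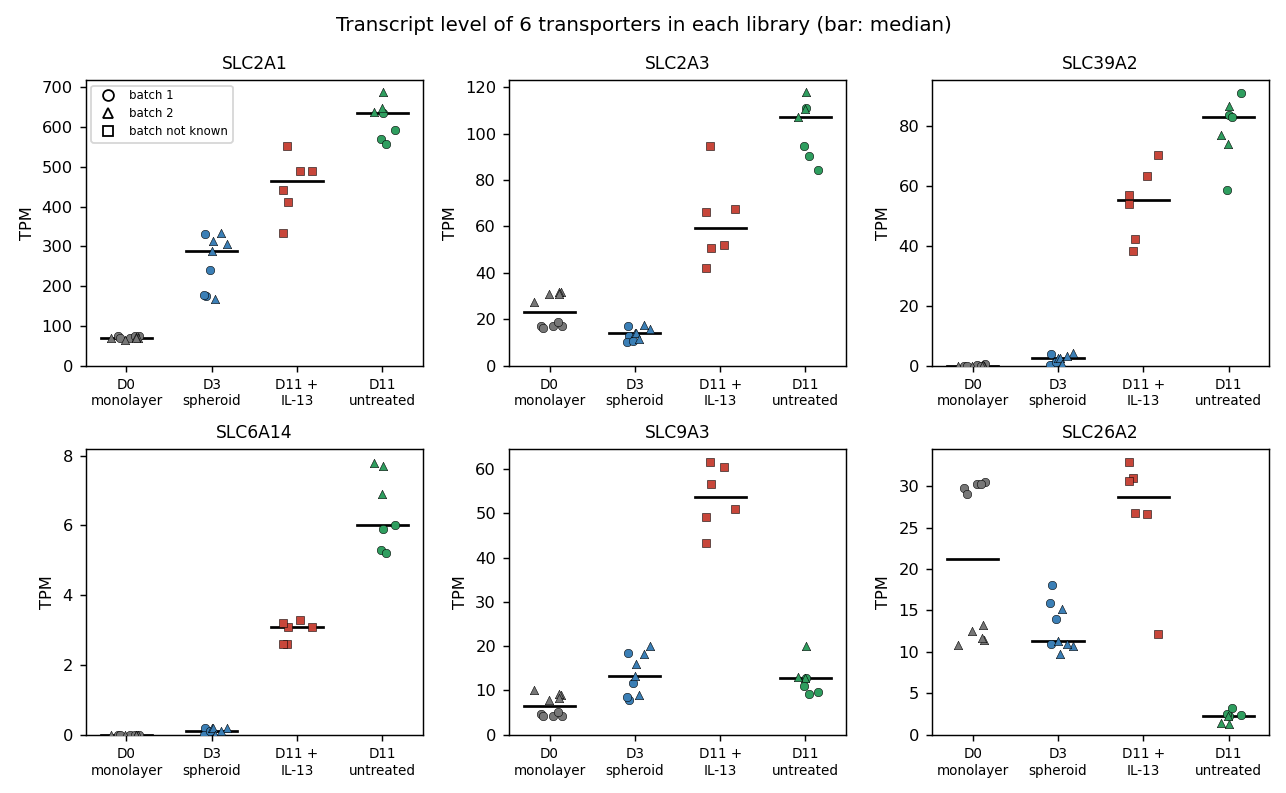
Transcript level (TPM, linear axis from 0) of 6 transporters in each library. Points are libraries, shapes are batches (squares where the batch of an IL-13 library is not known), and bars are medians. SLC2A1 steps upward from monolayers (median 70.2 TPM) to D3 (288) to untreated D11 spheroids (635). SLC9A3 and SLC26A2 are high with IL-13 (medians 53.8 and 28.6 TPM) and low without (12.8 and 2.3 TPM).

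Carriers of the end products of glycolysis did not move as a block. SLC16A1 (MCT1) and SLC16A3 (MCT4) move lactate together with a proton, and they changed in opposite directions. SLC16A1 measured 36.2 to 40.8 TPM (median 38.3) in monolayers, 49.2 to 75.6 TPM (median 67.8) in D3 and 82.7 to 109 TPM (median 91.4) in untreated D11 spheroids, a rise of 1.25 ± 0.08, 1.83 after rescaling for untreated D11 against monolayer (limma adjusted p = 3.9e-15). Its later step, 0.57 ± 0.082 for untreated D11 against D3, was not called once the mitochondrially encoded genes were taken out. SLC16A3 measured 86.7 to 97.5 TPM (median 94) in monolayers, 46.5 to 63.2 TPM (median 58.2) in D3 and 37.6 to 41.7 TPM (median 40.6) in untreated D11 spheroids, a fall of -1.19 ± 0.066, -0.61 after rescaling (limma adjusted p = 1.2e-16). None of these groups overlapped with the next. With IL-13 neither was called, at -0.14 ± 0.091, -0.39 after rescaling and 0.13 ± 0.076, -0.12 after rescaling, although SLC16A1 was called lower after rescaling. Of the 8 monocarboxylate carriers, 2 were higher and 5 lower in D3 spheroids than in monolayers (25% and 62.5%, against 12.7% and 68.2% of all genes), and 1 was higher with IL-13 (12.5%, against 39.2%). That 1, SLC16A11, passed the limit only through the IL-13 group, so its difference was partly fixed by the choice. It measured 0.2 to 3.8 TPM (median 1.7) with IL-13, against 0 to 1.3 TPM (median 0.3) without, groups that overlapped. Its neighbour SLC16A13 at chr17:7036075-7040121 (hg38, plus strand) ends before SLC16A11 begins at chr17:7041630-7043923 (minus strand), and since the handling of strand is not given, reads past their ends may not be told apart.

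SLC6A8, the sodium-coupled creatine carrier, also had its highest median in untreated D11 spheroids. It measured 71 to 119.5 TPM (median 95.4) in monolayers, 105 to 234 TPM (median 156) in D3 and 318 to 479.9 TPM (median 346) in untreated D11 spheroids. Untreated D11 libraries lay above all D3 and monolayer libraries, at 1.26 ± 0.16 against D3 (limma adjusted p = 5.4e-08), and D3 and monolayer libraries overlapped. IL-13 libraries measured 152 to 329.8 TPM (median 266), against 318 to 479.9 TPM (median 346) without IL-13, lower by a log2 difference of -0.58 ± 0.18, -0.83 after rescaling (limma adjusted p = 0.0098) with overlap.

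Among amino acid carriers, SLC7A5 and SLC3A2 fell after D3, while SLC38A2, SLC38A5 and SLC6A14 rose. SLC7A5 (LAT1, chr16:87830023-87869488, minus strand) exchanges large neutral amino acids and works as a heterodimer with SLC3A2 (4F2hc). SLC7A5 measured 781 to 1198 TPM (median 942) in monolayers, 451 to 854 TPM (median 646) in D3 and 112 to 237 TPM (median 172) in untreated D11 spheroids. The untreated D11 libraries lay below all D3 and monolayer libraries, at -1.95 ± 0.18 against D3 (limma adjusted p = 8.6e-11) and -2.54 ± 0.18, -1.94 after rescaling against monolayers. SLC3A2 measured 155 to 311 TPM (median 225) in monolayers, 119 to 193 TPM (median 149.7) in D3 and 53.2 to 104 TPM (median 89.5) in untreated D11 spheroids, at -0.90 ± 0.19 for untreated D11 against D3 (limma adjusted p = 1.3e-04). Both falls at D3, -0.58 ± 0.17 and -0.55 ± 0.17, were not called after rescaling. In batch 1 alone the SLC3A2 difference was 0.011, and monolayers overlapped D3 spheroids (155.1 to 170.3 against 149.7 to 180.8 TPM). Batch 1 overlapped for SLC7A5 too (780.7 to 818.4 against 646 to 854 TPM). In batch 2 the monolayers of SLC7A5 and SLC3A2, at 1066 to 1197.6 and 280.5 to 311.4 TPM, lay above the D3 libraries (451.2 to 825.4 and 119.4 to 193.1 TPM). Neither was called with IL-13 (0.07 ± 0.2, -0.19 after rescaling and 0.19 ± 0.22, -0.06 after rescaling), where IL-13 library 1 was the lowest for both.

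Others of the class fell with them after D3. SLC7A8 (LAT2), another partner of SLC3A2, measured 9.7 to 12.4 TPM (median 11.4) in monolayers, 18 to 20.9 TPM (median 19.6) in D3 and 3.8 to 7.2 TPM (median 6.6) in untreated D11 spheroids, so that it peaked at D3 without overlap with either neighbour in time. Its log2 difference was 0.75 ± 0.087, 1.25 after rescaling for D3 against monolayer and -1.64 ± 0.095 for untreated D11 against D3 (limma adjusted p = 1.9e-15). SLC7A1 (CAT1), a carrier of arginine and lysine, measured 29.5 to 52.8 TPM (median 40) in monolayers, 41.4 to 56 TPM (median 46.1) in D3 and 11.4 to 18 TPM (median 15.2) in untreated D11 spheroids, with D11 below both (-1.63 ± 0.14 against D3). Its monolayers split by batch, with 29.5 to 31.3 TPM in batch 1 and 48.8 to 52.8 TPM in batch 2. SLC38A7, a lysosomal glutamine carrier, fell already at D3, to 3.3 to 5.9 TPM (median 4.1), against 10.4 to 18.2 TPM (median 14.1) in monolayers (-1.45 ± 0.11, -0.97 after rescaling, limma adjusted p = 2.1e-13).

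For several abundant amino acid carriers the monolayers of the 2 batches did not overlap. SLC7A11 (xCT), the cystine-glutamate exchanger, measured 13.5 to 14.9 TPM in batch 1 and 50.1 to 63 TPM in batch 2 monolayers. Its difference between D3 and monolayer was 0.51 in batch 1 and -1.97 in batch 2, opposite in sign, and the interaction with batch was called (limma adjusted p = 1.0e-07). SLC1A5 (ASCT2), a glutamine exchanger, measured 224 to 243 TPM in batch 1 and 498 to 551 TPM in batch 2 monolayers. The untreated D11 difference from monolayers was 0.41 in batch 1 and -1.25 in batch 2 (interaction adjusted p in limma = 9.8e-08). Monolayers of carriers in other classes also split by batch, SLC2A3 among them (16.4 to 18.8 TPM in batch 1 and 27.5 to 31.8 TPM in batch 2). A pooled monolayer median can thus lie between the batches, where no library does. Over all members, the interaction with batch was called for 105 in D3 against monolayer (45.2% of all genes), 40 in untreated D11 against D3 (23.8% of all genes) and 112 in untreated D11 against monolayer (48.3% of all genes).

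**Figure D4:**
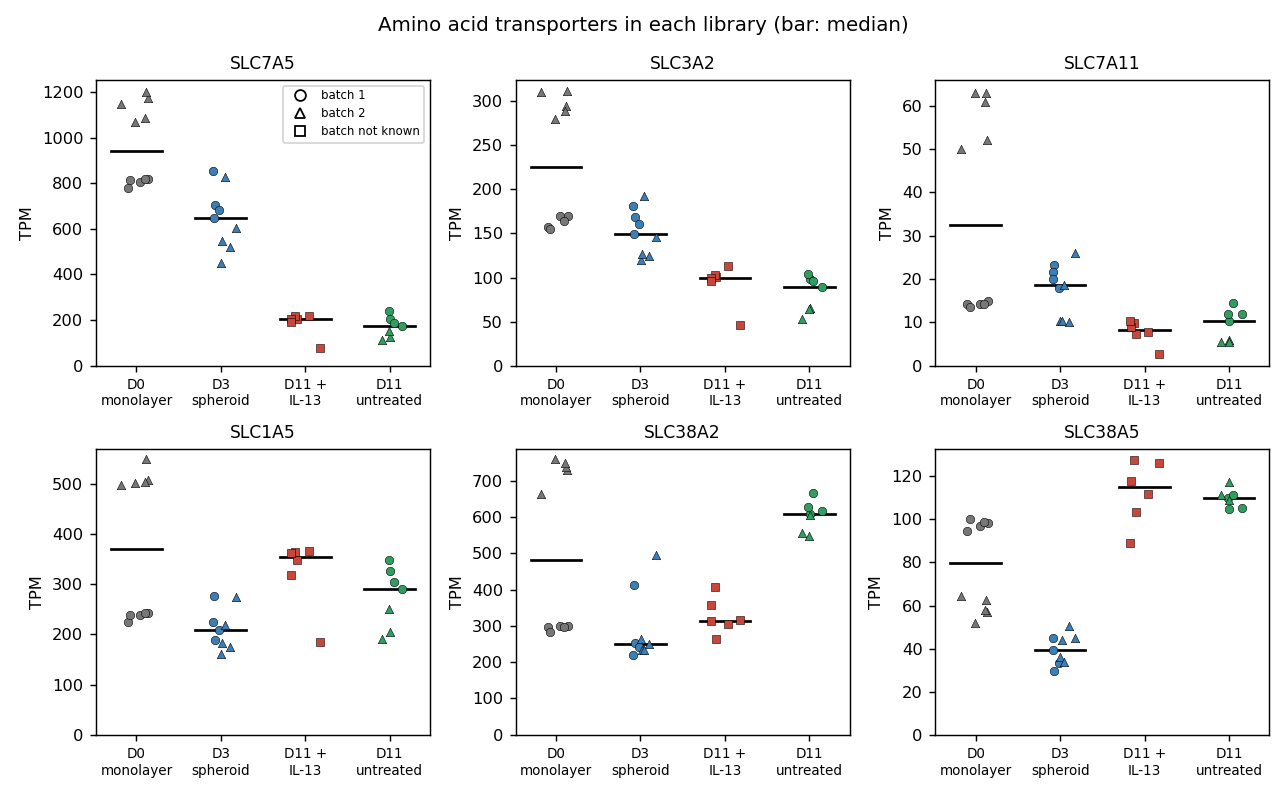
Transcript level (TPM, linear axis from 0) of 6 amino acid carriers in each library, with batches as shapes and medians as bars. SLC7A5 falls to a median of 172 TPM in untreated D11 spheroids. The monolayers of SLC7A5, SLC3A2, SLC7A11, SLC1A5 and SLC38A2 form 2 sets by batch, higher in batch 2, and those of SLC38A5 form 2 sets, lower in batch 2. IL-13 library 1 lies below the other IL-13 libraries for SLC7A5, SLC3A2, SLC7A11 and SLC1A5.

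SLC38A2 (SNAT2) and SLC38A5 (SNAT5), sodium-coupled carriers of small neutral amino acids and glutamine, rose between D3 and D11. SLC38A2 measured 547 to 666 TPM (median 607) in untreated D11, against 219 to 496 TPM (median 249) in D3 spheroids (1.17 ± 0.2, limma adjusted p = 4.2e-06). SLC38A5 measured 105 to 118 TPM (median 109.7) in untreated D11, against 29.5 to 50.3 TPM (median 39.4) in D3 spheroids (1.44 ± 0.13, limma adjusted p = 2.8e-11). The D11 libraries of both lay above every D3 library, in both batches. Monolayers measured 282.5 to 300.8 TPM of SLC38A2 in batch 1 and 663.4 to 760.7 TPM in batch 2. Untreated D11 libraries of batch 2, at 547 to 606.7 TPM of SLC38A2, lay below the monolayers of that batch. For SLC38A5 the monolayers measured 94.6 to 100.2 TPM in batch 1 and 52.1 to 64.6 TPM in batch 2, below all untreated D11 libraries. With IL-13 the pair parted. SLC38A2 measured 265 to 408 TPM (median 314) with IL-13, against 547 to 666 TPM (median 607) without, with no overlap (-0.76 ± 0.22, -1.02 after rescaling, limma adjusted p = 0.0051). SLC38A5 measured 88.9 to 128 TPM (median 115) with IL-13, against 105 to 118 TPM (median 109.7) without, and was not called (-0.03 ± 0.14, -0.28 after rescaling).

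SLC6A14 (ATB0,+, chrX:116436622-116461458, plus strand), a carrier of neutral and cationic amino acids driven by sodium and chloride, and SLC39A2 (ZIP2, chr14:20999255-21001871, plus strand), a zinc importer, stood at or near 0 in monolayers and were present in every untreated D11 library, SLC6A14 at a low level. SLC6A14 was listed at 0 in all monolayers and measured 0 to 0.2 TPM (median 0.1) in D3 and 5.2 to 7.8 TPM (median 6) in untreated D11 spheroids. All untreated D11 libraries lay above all D3 libraries, at 2.74 ± 0.061. SLC6A14 reached 1 TPM in D11 libraries only, so this difference was partly fixed by the choice and is given without a test. With IL-13 it measured 2.6 to 3.3 TPM (median 3.1), against 5.2 to 7.8 TPM (median 6) without, again with no overlap (-0.85 ± 0.068, -1.07 after rescaling, limma adjusted p = 2.5e-11). SLC7A4, a relative of the cationic amino acid carriers, went the other way with IL-13, at 0.6 to 5.7 TPM (median 3.5), against 0 to 0.5 TPM (median 0.1) without (1.77 ± 0.23, 1.70 after rescaling), but it passed the limit only through the IL-13 group, so that this difference is given without a test. Over the 28 amino acid carriers, 3 were higher and 20 lower in D3 spheroids than in monolayers (10.7% and 71.4%, against 12.7% and 68.2% of all genes). After rescaling these were 7 and 12 (33.2% and 33.1% of all genes). In untreated D11 against D3 spheroids 7 were higher and 16 lower (25% and 57.1%, against 33.6% and 35.8%). Counts without the mitochondrially encoded genes were 3 and 20 (13.6% and 65.7% of all genes). With IL-13, 7 were higher and 7 lower (25% and 25%, against 39.2% and 8.49%), or 6 and 9 after rescaling (19.2% and 20.6% of all genes).

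The promoters of SLC39A2 and SLC6A14 are shown because these genes had the largest late rises among zinc and amino acid carriers, and they were searched on both strands for TGANTCA, the binding motif of AP-1, a factor family known in squamous differentiation. Each runs from 250 bases before to 50 bases after the start that RefSeq gives on GRCh38.p14, 5′ to 3′ on the gene's strand, at chr14:20999043-20999342 (plus strand) and chrX:116436356-116436655 (plus strand). Capitals mark a match. TGANTCA stood in 7.71% of 35116 RefSeq promoters of that length and in 8 of the 154 members with a promoter in the table (5.19%). SLC6A14 had 1 match, starting 216 bases before the start site, and SLC39A2 had 0. A match is a description of letters and says nothing of binding.
SLC39A2: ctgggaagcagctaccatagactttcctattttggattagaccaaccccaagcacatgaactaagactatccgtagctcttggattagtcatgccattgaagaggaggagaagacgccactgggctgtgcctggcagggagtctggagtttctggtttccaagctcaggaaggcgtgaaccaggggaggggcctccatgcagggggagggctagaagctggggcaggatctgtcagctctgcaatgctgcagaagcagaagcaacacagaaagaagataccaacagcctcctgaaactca
SLC6A14: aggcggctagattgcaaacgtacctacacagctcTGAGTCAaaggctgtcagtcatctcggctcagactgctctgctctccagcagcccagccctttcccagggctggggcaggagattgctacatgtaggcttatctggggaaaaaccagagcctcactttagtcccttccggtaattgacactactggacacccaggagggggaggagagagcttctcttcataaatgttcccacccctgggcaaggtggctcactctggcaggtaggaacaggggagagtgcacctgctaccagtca

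Of the zinc carriers, SLC39A2 stood apart by the size of its rise. The SLC39 (ZIP) family brings zinc into the cytosol from outside or from organelles, and the SLC30 (ZnT) family takes it out. SLC39A2 measured 0 to 0.5 TPM (median 0) in monolayers, 0.2 to 4.3 TPM (median 2.5) in D3 and 58.4 to 90.8 TPM (median 82.8) in untreated D11 spheroids. It had the largest rise of any member, 4.92 ± 0.24 for untreated D11 against D3 (limma adjusted p = 2.0e-17), in both batches (5.28 and 4.59). With IL-13 it measured 38.1 to 70.2 TPM (median 55.4), against 58.4 to 90.8 TPM (median 82.8) without, groups that overlapped, and at -0.50 ± 0.26, -0.75 after rescaling it was called lower only after rescaling (adjusted p = 0.12 in limma before it).

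Of the 17 zinc carriers, 13 were lower and 2 higher in D3 spheroids than in monolayers (76.5% and 11.8%, against 68.2% and 12.7% of all genes). After rescaling these were 10 and 5 (33.1% and 33.2% of all genes). SLC39A14 (ZIP14), which carries zinc, iron and manganese, fell to 7.7 to 9.7 TPM (median 9) in D3 spheroids, against 23 to 28.7 TPM (median 25.6) in monolayers (-1.50 ± 0.06, -0.99 after rescaling, limma adjusted p = 6.0e-20). With IL-13 it measured 5.5 to 8.5 TPM (median 7.1), against 10.5 to 11.7 TPM (median 11.2) without, with no overlap (-0.59 ± 0.074, -0.83 after rescaling, limma adjusted p = 1.6e-07). SLC39A13 (ZIP13), a carrier of the secretory pathway, measured 21.8 to 33.3 TPM (median 27.5) in D3 spheroids, against 66.2 to 97 TPM (median 75.9) in monolayers (-1.52 ± 0.1, -0.99 after rescaling). SLC30A1 (ZnT1), the exporter of the plasma membrane, measured 45.4 to 57.8 TPM (median 49.3) in D3 spheroids, against 67.7 to 123 TPM (median 93.5) in monolayers (-0.84 ± 0.13, -0.30 after rescaling), and was not called with IL-13.

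SLC39A4 (ZIP4), the carrier of dietary zinc uptake, measured 10.9 to 21.2 TPM (median 15.6) in monolayers, 12.3 to 19.7 TPM (median 16.4) in D3 and 17.9 to 22 TPM (median 18.7) in untreated D11 spheroids, with overlap throughout. Its small difference of 0.28 ± 0.11 for untreated D11 against D3 turned to a lower call when the mitochondrially encoded genes were taken out. In monolayers its median was 15.6 TPM and that of SLC39A2 was 0, whereas in untreated D11 spheroids SLC39A2 stood at 82.8 TPM and SLC39A4 at 18.7 TPM. Over the class, 4 were higher and 5 lower in untreated D11 than in D3 spheroids (23.5% and 29.4%, against 33.6% and 35.8% of all genes). Counts without the mitochondrially encoded genes were 1 and 14 (13.6% and 65.7% of all genes). With IL-13, 3 were higher and 2 lower (17.6% and 11.8%, against 39.2% and 8.49%), or 0 and 5 after rescaling (19.2% and 20.6% of all genes).

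Other metal carriers numbered 4. SLC31A2, a copper carrier of internal membranes, measured 13.9 to 19 TPM (median 15.1) with IL-13, against 18.3 to 31.8 TPM (median 22.1) without (-0.50 ± 0.12, -0.74 after rescaling, limma adjusted p = 0.0011), with IL-13 library 1 as the only one in the untreated range. SLC11A2 (DMT1), the importer of ferrous iron, measured 6.7 to 8.3 TPM (median 7.3) in monolayers, 3.8 to 5.6 TPM (median 4.4) in D3 and 1.5 to 3.2 TPM (median 2.7) in untreated D11 spheroids, lower at each step without overlap (-1.31 ± 0.091, -0.83 after rescaling for untreated D11 against monolayer).

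Ion and pH carriers held the 2 largest IL-13 rises of all members. SLC26A2 (chr5:149960737-149993455, plus strand), the sulfate carrier that supplies sulfation in connective tissue, and SLC9A3 (NHE3, chr5:470458-524332, minus strand), the apical sodium-hydrogen exchanger of gut and kidney, were high with IL-13 in every library. SLC26A2 measured 12.1 to 32.9 TPM (median 28.6) with IL-13, against 1.3 to 3.2 TPM (median 2.3) without. The lowest IL-13 library, library 1, still lay above the highest untreated one, and the log2 difference was 2.89 ± 0.19, 2.71 after rescaling (limma adjusted p = 2.2e-13). Earlier it measured 10.8 to 30.5 TPM (median 21.1) in monolayers and 9.8 to 18.1 TPM (median 11.3) in D3 spheroids, and the untreated D11 libraries lay below all of these (-2.22 ± 0.17 against D3, limma adjusted p = 9.4e-13). The IL-13 libraries overlapped the monolayers, which themselves split by batch into 29.1 to 30.5 TPM in batch 1 and 10.8 to 13.2 TPM in batch 2. The comparisons of untreated D11 with D3 and with IL-13 share the untreated libraries.

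SLC9A3 measured 43.3 to 61.7 TPM (median 53.8) with IL-13, against 9.1 to 20 TPM (median 12.8) without. No library overlapped, and the log2 difference was 2.19 ± 0.17, 1.95 after rescaling (limma adjusted p = 6.0e-12). Before that it measured 4.2 to 10.2 TPM (median 6.5) in monolayers and 7.8 to 20 TPM (median 13.2) in D3 spheroids, higher at D3 by 0.89 ± 0.13, 1.36 after rescaling with overlap (limma adjusted p = 5.8e-07), and untreated D11 and D3 spheroids were not told apart as deposited (0.01 ± 0.15). Without the mitochondrially encoded genes SLC9A3 was called lower in untreated D11 than in D3 spheroids (-0.56, limma adjusted p = 7.6e-04).

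The promoters of SLC26A2 and SLC9A3 are shown because these genes rose most with IL-13, and they were searched for TTCNNNNGAA, the palindrome bound by STAT6, the factor known to act downstream of the IL-13 receptor. They lie at chr5:149960508-149960807 (plus strand) and chr5:524400-524699 (minus strand) and are given as above. TTCNNNNGAA, which reads the same on both strands, stood in 6.44% of 35116 RefSeq promoters and in 5 of 154 members (3.25%). SLC26A2 and SLC9A3 had 0 matches each, which says only that these letters are not in this window.
SLC26A2: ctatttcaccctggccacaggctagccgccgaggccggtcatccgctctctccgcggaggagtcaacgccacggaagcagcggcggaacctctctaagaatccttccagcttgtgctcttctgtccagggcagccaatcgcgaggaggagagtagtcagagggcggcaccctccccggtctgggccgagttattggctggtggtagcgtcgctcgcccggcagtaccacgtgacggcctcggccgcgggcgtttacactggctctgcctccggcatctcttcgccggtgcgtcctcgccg
SLC9A3: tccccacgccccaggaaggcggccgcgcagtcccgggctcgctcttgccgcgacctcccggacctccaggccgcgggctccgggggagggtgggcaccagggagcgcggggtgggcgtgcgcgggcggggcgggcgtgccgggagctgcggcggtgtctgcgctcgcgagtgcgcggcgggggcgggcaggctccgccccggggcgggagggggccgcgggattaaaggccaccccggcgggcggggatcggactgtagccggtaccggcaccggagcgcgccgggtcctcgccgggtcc

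Other ion carriers moved less with IL-13. SLC4A11, a proton-permeable relative of the bicarbonate carriers, measured 1.8 to 3.1 TPM (median 2.35) with IL-13, against 0.5 to 1.1 TPM (median 0.6) without, with no overlap (0.91 ± 0.1, 0.80 after rescaling, limma adjusted p = 3.2e-08). SLC20A1 (PiT1), a sodium-phosphate carrier, measured 7.1 to 15.3 TPM (median 12.8) with IL-13, against 15.3 to 30.6 TPM (median 21.5) without, lower by a difference of -0.98 ± 0.17, -1.22 after rescaling (limma adjusted p = 4.2e-05), the groups meeting at 1 value. It had been falling before, with 82.1 to 178 TPM (median 128) in monolayers and 35.6 to 66.2 TPM (median 37.9) in D3 spheroids. The monolayers split by batch, with 164 to 177.7 TPM of SLC20A1 in batch 1 and 82.1 to 92.2 TPM in batch 2. SLC4A7 (NBCn1), a sodium-bicarbonate carrier, measured 1.7 to 3.2 TPM (median 2.6) with IL-13, against 3.3 to 4.6 TPM (median 3.4) without (-0.42 ± 0.14, -0.62 after rescaling, limma adjusted p = 0.013), a call that ended when the mitochondrially encoded genes were taken out. SLC12A2 (NKCC1), the sodium-potassium-chloride carrier, was not called with IL-13 as deposited and was called lower after rescaling (-0.18 ± 0.1, -0.32 after rescaling).

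Of the 23 ion and pH carriers, 22 were lower and 1, SLC9A3, higher in D3 spheroids than in monolayers (95.7% lower, against 68.2% of all genes), with a median of -0.73 against -0.44. After rescaling 15 were lower and 2 higher, against 33.1% and 33.2% of all genes. SLC4A3 (AE3), a chloride-bicarbonate exchanger, had the largest of these falls, to 5.5 to 8 TPM (median 6.8) in D3 spheroids, against 18.8 to 28.4 TPM (median 22.4) in monolayers (-1.63 ± 0.09, -1.12 after rescaling). In untreated D11 against D3 spheroids 6 were higher and 13 lower (26.1% and 56.5%, against 33.6% and 35.8% of all genes). Counts without the mitochondrially encoded genes were 1 and 18 (13.6% and 65.7% of all genes). With IL-13, 11 were higher and 3 lower (47.8% and 13%, against 39.2% and 8.49%), or 8 and 6 after rescaling (19.2% and 20.6% of all genes). SLC26A4 (pendrin) and SLC26A9, anion carriers named whatever their result, did not reach the limit, with highest values of 0.5 and 0.6 TPM with IL-13, against 0.2 and 0.2 TPM in untreated D11 spheroids.

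**Figure D5:**
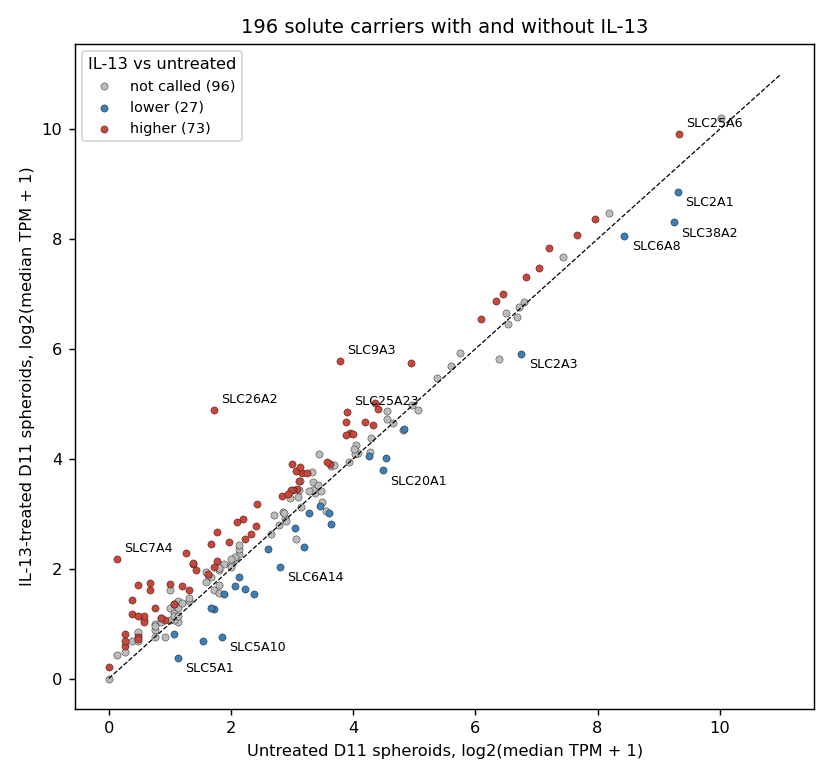
Median level of each of the 196 members in D11 spheroids with IL-13 (vertical axis) against untreated D11 spheroids (horizontal axis), both as log2(median TPM + 1). Colours mark members called higher (73), lower (27) or not called (96), and the dashed line marks equal levels. SLC26A2, SLC9A3 and SLC7A4 lie farthest above the line, and SLC5A10, SLC6A14 and SLC20A1 are among those below it.

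Lipid carriers were few, and 1 of them, SLC10A6, appeared late. SLC10A6 (SOAT), a carrier of sulfated steroids, measured 1.5 to 2.4 TPM (median 1.9) in untreated D11, against 0 to 0.3 TPM (median 0.1) in D3 spheroids (1.40 ± 0.068). Its level with IL-13 was 0.4 to 1 TPM (median 0.6), against 1.5 to 2.4 TPM (median 1.9) without (-0.82 ± 0.076, -0.97 after rescaling). Neither pair of groups overlapped, but SLC10A6 passed the limit only through the untreated D11 group, so these are descriptions. SLC27A4 (FATP4), a fatty acid carrier and acyl-CoA synthetase of skin, measured 15.2 to 20 TPM (median 18.1) in monolayers, 10.6 to 13.4 TPM (median 11.6) in D3 and 15.2 to 21.1 TPM (median 18.1) in untreated D11 spheroids, a dip at D3. The dip was not called after rescaling (-0.57 ± 0.069, -0.06 after rescaling), and the later rise (0.57 ± 0.076) was not called without the mitochondrially encoded genes. SLC44A2, a choline carrier-like protein, followed the same shape with 23.2 to 34.8 TPM (median 28.4), 12.6 to 17.7 TPM (median 15.2) and 24.3 to 29.5 TPM (median 27.2) in the same order, and its later rise of 0.80 ± 0.083 (limma adjusted p = 7.0e-10) was called on all these scales. Of the 7, 4 were higher and 2 lower in untreated D11 than in D3 spheroids (57.1% and 28.6%, against 33.6% and 35.8% of all genes). Counts without the mitochondrially encoded genes were 2 and 4 (13.6% and 65.7% of all genes). With IL-13, 2 were higher and 2 lower (28.6% each, against 39.2% and 8.49%), or 1 and 4 after rescaling (19.2% and 20.6% of all genes).

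Mitochondrial carriers, all of the SLC25 family and encoded in the nucleus, held the most abundant member in spheroids, by median TPM. SLC25A5 (ANT2), which exchanges ADP and ATP across the inner membrane, measured 668 to 975 TPM (median 811) in monolayers, 1105 to 1502 TPM (median 1310.2) in D3 and 836 to 1141 TPM (median 1042) in untreated D11 spheroids. It was higher in D3 spheroids than in monolayers without overlap (0.70 ± 0.068, 1.24 after rescaling, limma adjusted p = 1.1e-10), and lower in untreated D11 than in D3 (-0.38 ± 0.075). SLC25A10, the dicarboxylate carrier, measured 4.4 to 9.4 TPM (median 7.4) in untreated D11, against 15.8 to 30.2 TPM (median 22) in D3 spheroids, a fall without overlap (-1.66 ± 0.14, limma adjusted p = 8.2e-12). In untreated D11 against D3, 23 of 37 were lower and 4 higher (62.2% lower, against 35.8% of all genes), with a median of -0.40 against -0.02. After rescaling these were 22 and 5 (35.3% and 37.8% of all genes). Without the mitochondrially encoded genes 33 were lower and 1 higher, against 65.7% and 13.6% of all genes.

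With IL-13, 21 of the 37 were higher and 2 lower (56.8% higher, against 39.2% of all genes). After rescaling these were 9 and 5 (19.2% and 20.6% of all genes). SLC25A23, a calcium-regulated carrier of ATP-magnesium and phosphate, measured 24.4 to 30.6 TPM (median 27.9) with IL-13, against 12 to 16.2 TPM (median 13.9) without (1.01 ± 0.16, 0.77 after rescaling, limma adjusted p = 1.2e-05). SLC25A37 (mitoferrin-1), which brings iron into mitochondria, measured 5.3 to 7.5 TPM (median 6) with IL-13, against 10 to 13.1 TPM (median 11.4) without (-0.80 ± 0.071, -1.03 after rescaling, limma adjusted p = 2.2e-10). The groups overlapped for neither.

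SLC29A1, SLC29A2 and SLC43A3 fell and SLC29A4 rose between D3 and untreated D11 spheroids. SLC29A1 (ENT1) and SLC29A2 (ENT2) let nucleosides pass down their gradient, SLC43A3 carries purine bases, and SLC29A4 (PMAT) carries monoamines and adenosine. SLC43A3 measured 7.3 to 23.7 TPM (median 14.8) in monolayers, 1.8 to 6.2 TPM (median 2.5) in D3 and 0.1 to 0.7 TPM (median 0.2) in untreated D11 spheroids, lower at each step without overlap (-3.56 ± 0.19, -3.19 after rescaling for untreated D11 against monolayer, limma adjusted p = 8.7e-17). Monolayers of SLC43A3 split by batch, with 21.6 to 23.7 TPM in batch 1 and 7.3 to 8 TPM in batch 2. SLC29A2 measured 0.4 to 0.9 TPM (median 0.6) in untreated D11, against 4.1 to 6.3 TPM (median 5) in D3 spheroids (-1.91 ± 0.11). In IL-13 spheroids it was 0.9 to 2.4 TPM (median 2.05), against 0.4 to 0.9 TPM (median 0.6) without (0.81 ± 0.12, 0.69 after rescaling, limma adjusted p = 4.2e-06), groups that met at 1 value. SLC29A1 measured 2.4 to 4.3 TPM (median 3.4) in untreated D11, against 7.6 to 17 TPM (median 8.8) in D3 spheroids (-1.51 ± 0.18).

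SLC29A4 rose to 1.9 to 11.3 TPM (median 6.8) in untreated D11, against 0.3 to 0.9 TPM (median 0.4) in D3 spheroids (2.02 ± 0.25). It would not have passed the limit without the D11 libraries, so this difference was partly fixed by the choice and is given without a test. The rise was 2.75 in batch 1 and 1.12 in batch 2 and differed between them (interaction adjusted p in limma = 2.3e-05), with 6.8 to 11.3 TPM in batch 1 and 1.9 to 3.5 TPM in batch 2 of untreated D11. Most of the 28 members of the class are SLC35 carriers of nucleotide sugars. Of the 28, 7 were higher and 10 lower in untreated D11 than in D3 spheroids (25% and 35.7%, against 33.6% and 35.8% of all genes). Counts without the mitochondrially encoded genes were 3 and 19 (13.6% and 65.7% of all genes). With IL-13, 11 were higher and 1 lower (39.3% and 3.57%, against 39.2% and 8.49%), or 6 and 3 after rescaling (19.2% and 20.6% of all genes).

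Vitamin and organic ion carriers held a single-stage member. SLC47A2 (MATE2), a proton-coupled exporter of organic cations, measured 0.2 to 0.6 TPM (median 0.45) in monolayers, 1.6 to 2.8 TPM (median 2.5) in D3 and 0.2 to 0.6 TPM (median 0.4) in untreated D11 spheroids. Every D3 library lay above every other, at 1.21 ± 0.075, 1.44 after rescaling against monolayers, but it passed the limit only through D3, so this is a description. SLC46A1, the proton-coupled folate carrier, measured 2.1 to 4 TPM (median 3.2) in D3 spheroids, against 7.5 to 13 TPM (median 10.4) in monolayers (-1.42 ± 0.1, -0.96 after rescaling, limma adjusted p = 1.1e-13). SLC5A6, the sodium-dependent multivitamin carrier, measured 9.8 to 25 TPM (median 16.6) in monolayers, 5.5 to 11.3 TPM (median 7.2) in D3 and 1.3 to 4.4 TPM (median 3.3) in untreated D11 spheroids (-2.19 ± 0.16, -1.69 after rescaling for untreated D11 against monolayer). Its monolayers split by batch, with 21.3 to 25 TPM in batch 1 and 9.8 to 11.8 TPM in batch 2.

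SLC19A2, a thiamine carrier, measured 3 to 6.1 TPM (median 4.25) with IL-13, against 6.8 to 12.4 TPM (median 8.2) without, with no overlap (-0.85 ± 0.11, -1.08 after rescaling, limma adjusted p = 2.7e-07). SLC49A4 measured 2.7 to 5.5 TPM (median 4.45) with IL-13, against 1.7 to 2.5 TPM (median 2.2) without, also with no overlap (0.79 ± 0.098, 0.60 after rescaling, limma adjusted p = 1.7e-07). SLC22A23, an organic ion carrier family member without a settled substrate, measured 0.2 to 0.7 TPM (median 0.45) in monolayers, 0.9 to 2.3 TPM (median 1.5) in D3 and 1.8 to 3.6 TPM (median 2.3) in untreated D11 spheroids (1.31 ± 0.12, 1.58 after rescaling for untreated D11 against monolayer, limma adjusted p = 7.5e-12). Of the 25, 10 were higher and 9 lower in untreated D11 than in D3 spheroids (40% and 36%, against 33.6% and 35.8% of all genes). Counts without the mitochondrially encoded genes were 3 and 14 (13.6% and 65.7% of all genes). With IL-13, 9 were higher and 4 lower (36% and 16%, against 39.2% and 8.49%), or 3 and 7 after rescaling (19.2% and 20.6% of all genes).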

How the data were processed

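RNA was sequenced from 32 EPC2 libraries. The authors deposited 1 table of TPM values, rounded to 1 decimal, for 19345 symbols. Per the submitters' processing notes, reads were placed on hg38. The aligner, quantifier, gene models and use of strand were not given in the sources used here. Since TPM holds no depth, no counting error is given, and precision rests on how far libraries of a group spread. TPM divides by a library's own total, so abundant transcripts lower all others, and a 0 can be a failed estimate. One medium additive used in the first 3 days of spheroid culture, and 1 of the 26 genes given whatever their result, are not reported here.

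By name, 26 columns matched 1 sample each. The 6 IL-13 columns carry numbers that the IL-13 samples do not. They were matched to the group, each with a batch 2 share of 1 in 6, and IL-13 within batches was not tested. Library numbers in the text are those of the columns. Across genes, libraries of 1 group correlated at r = 0.952 to 0.995 and shared at most 3.56% of values exactly, so none counted as a duplicate.

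The scale was log2(TPM + 1), for genes with 1 TPM or more in 6 libraries or more. A limma 3.58.1 model (R 4.3.3) of group and batch, with an intensity trend, was fitted to all 32 libraries. Its p-values had a Benjamini-Hochberg adjustment over 12221 genes, with the threshold at 0.05. The fit was tested on simulated data. The first 3 comparisons share libraries with each other, and the IL-13 comparison shares the untreated D11 libraries. Other pseudocounts, filters, scalings, batch handling, sets of libraries and a replicate block were tried. Named genes comprised, per comparison, the 6 members that rose most and the 6 that fell most among those called (with 1 sign in both batches, except for IL-13, where batches could not be fitted), the largest rise and fall of each class, and 26 genes given whatever their result. Members, lists and rules were chosen with earlier results of these data known. Promoters came from RefSeq (GRCh38.p14), which held 154 of the 196 members, and figures from matplotlib 3.10.9 under Python 3.11.15.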

Additional observations from a re-analysis of the deposited data

Results flagged for a closer look

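A library far from the others of its group was found for 22 of 270 combinations of a named gene and a group of 4 to 10 libraries, in 21 genes. Chance flags about 1 in 20. Of these, 11 were IL-13 library 1, which was below the other IL-13 libraries for 10 genes. Levels in that library were 185.5 TPM for SLC1A5 (others 318.7 to 366.9), 78.3 TPM for SLC7A5 (191.8 to 216), 46 TPM for SLC3A2 (96 to 112.7), 4.9 TPM for SLC7A8 (9 to 10.7) and 2.6 TPM for SLC38A7 (5.8 to 6.9). They were 12.1 TPM for SLC26A2 (26.6 to 32.9), 5.9 TPM for SLC16A13 (15.2 to 17.5), 7.8 TPM for SLC25A10 (12.4 to 14.5), 1.9 TPM for SLC5A6 (5.7 to 6.8) and 0.5 TPM for SLC45A4 (2 to 2.4). SLC31A2 was the exception, at 19 TPM (13.9 to 15.5). Untreated D11 libraries of batch 2 lay below those of batch 1 for SLC1A5 (190.9 to 250.6 against 290.2 to 348.1 TPM), SLC7A5 (111.5 to 153.2 against 171.8 to 237.1) and SLC3A2 (53.2 to 65.2 against 89.5 to 104.1). They overlapped for SLC25A10 (4.4 to 7.4 against 6.1 to 9.4) and SLC31A2 (21.5 to 31.8 against 18.3 to 22.6). The batch of IL-13 library 1 is not known, and a part of batch in its levels was not tested.

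The other 11 were spread over groups. Untreated D11 library 2 had 4.4 TPM of SLC25A35 (others 1.1 to 2.5), 0.9 TPM of SLC29A2 (0.4 to 0.6) and 0.7 TPM of SLC43A3 (0.1 to 0.3). Untreated D11 library 4 had 20 TPM of SLC9A3 (9.1 to 13), and library 5 had 4.6 TPM of SLC4A7 (3.3 to 3.7). Among D3 libraries, library 2 had 5.6 TPM of SLC11A2 (3.8 to 4.7), library 4 had 1.9 TPM of SLC16A11 (0 to 0.6) and 0.5 TPM of SLC5A10 (0.1 to 0.3), and library 1 had 0.2 TPM of SLC5A1 (0 to 0.1). IL-13 library 5 had 0.4 TPM of SLC5A1 (0.3 in the others), and monolayer library 10 had 64.4 TPM of SLC2A1 (69.3 to 74.4).

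The change between groups differed between the batches, by the interaction of batch and group in limma, for 105 of 196 members in D3 spheroids against monolayers (45.2% of all genes), 40 in untreated D11 against D3 spheroids (23.8%) and 112 in untreated D11 spheroids against monolayers (48.3%). Monolayer levels of SLC7A11, SLC1A5, SLC38A2, SLC3A2 and SLC7A5 were higher in batch 2. The cause was not tested.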

How the results depend on the processing

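Depth is unknown, so no limit from counting can be given, and low members rest on single steps of 0.1 TPM. The IL-13 libraries cannot be placed in a batch, and 5 of the 6 IL-13 samples but 4 of the 7 untreated D11 samples belong to batch 1. The balance of higher and lower calls changed with the scaling. Pseudocounts of 0.1 and 5, no filter, no batch term, single batches, both groups fitted alone, and leaving out D3 libraries 4 and 7 (chosen after seeing the data) kept every count within 1.5 times. Without D3 libraries 4 and 7, 24 members were higher and 145 lower in D3 against monolayer, and 54 and 84 in untreated D11 against D3. Counts were 30 and 134 in untreated D11 against monolayer, and 74 and 27 in IL-13 against untreated D11.

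Counts of members moved by more than that in these settings. Requiring a mean of at least 5 TPM, which leaves 111 members, gave 14 higher and 81 lower in D3 against monolayer, 31 and 45 in untreated D11 against D3, 18 and 77 in untreated D11 against monolayer, and 43 and 15 in IL-13 against untreated D11. Median-of-ratios rescaling gave 55 higher and 82 lower in D3 against monolayer, 56 higher in untreated D11 against monolayer, and 39 higher and 49 lower in IL-13 against untreated D11. Quantile normalization gave 48 higher and 90 lower, 51 higher, and 39 higher and 50 lower in the same comparisons. Removing mitochondrially encoded genes gave 19 higher and 140 lower in untreated D11 against D3 and 18 higher in untreated D11 against monolayer. With single libraries left out, higher and lower calls ran from 22 to 25 and 139 to 146, from 51 to 55 and 84 to 92, from 28 to 33 and 132 to 137, and from 64 to 96 and 23 to 27 in the order of comparisons above. The 96 higher calls, with 23 lower, came from leaving out IL-13 library 1, and the next highest count was 77.

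The replicate numbers did not pair the samples. Correlations of same-numbered deviations ran from -0.444 to 0.356 over 9 pairs of D3 and monolayer, from -0.159 to 0.164 over 7 pairs of untreated D11 and D3, and from -0.022 to 0.056 over 7 pairs of untreated D11 and monolayer, and in each comparison 1 sample correlated best with its own number. A replicate block gave 24 higher and 144 lower, 49 and 91, and 31 and 128. IL-13 and untreated D11 samples share no numbers, so the block could not be fitted there.

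In D3 against monolayer the log2 difference turned sign in these settings. In batch 1 alone it was 0.011 for SLC3A2, 0.506 for SLC7A11 and -0.227 for SLC39A4. Without D3 libraries 4 and 7 it was -0.016 for SLC39A4. With single libraries left out, SLC39A4 ran from -0.005 to 0.094. In untreated D11 against D3 the log2 difference turned sign in these settings. Without mitochondrially encoded genes it was -0.016 for SLC10A3, -0.02 for SLC16A1, -0.212 for SLC1A5, -0.558 for SLC9A3, -0.296 for SLC39A4 and -0.209 for SLC39A14. After quantile normalization it was -0.056 for SLC1A5 and -0.005 for SLC9A3. With a pseudocount of 5 it was -0.007 for SLC9A3. Without a batch term it was -0.069 for SLC9A3. With both groups fitted alone it was -0.015 for SLC9A3. With a replicate block it was -0.041 for SLC9A3. In batch 1 alone it was -0.049 for SLC9A3. With single libraries left out, SLC9A3 ran from -0.084 to 0.123. In untreated D11 against monolayer the log2 difference turned sign in these settings. Without mitochondrially encoded genes it was -0.167 for SLC66A2, -0.167 for SLC38A2, -0.236 for SLC39A4, -0.558 for SLC27A4 and -0.257 for SLC25A5. After rescaling it was 0.187 for SLC66A3, 0.231 for SLC1A5 and 0.517 for SLC44A2. After quantile normalization it was 0.173 for SLC66A3, 0.315 for SLC44A2 and -0.198 for SLC25A5. In batch 1 alone it was 0.414 for SLC1A5 and 0.217 for SLC44A2. In batch 2 alone it was -0.354 for SLC38A2 and -0.091 for SLC27A4. With both groups fitted alone it was -0.003 for SLC27A4. With a replicate block it was 0.014 for SLC44A2. With single libraries left out, SLC27A4 ran from -0.028 to 0.031. In IL-13 against untreated D11 the log2 difference turned sign in these settings. After rescaling it was -0.06 for SLC3A2, -0.187 for SLC7A5, -0.115 for SLC16A3, -0.029 for SLC30A1, -0.094 for SLC25A5 and -0.069 for SLC29A1. After quantile normalization it was -0.019 for SLC3A2, -0.134 for SLC7A5, -0.081 for SLC16A3 and -0.088 for SLC29A1. With both groups fitted alone it was -0.003 for SLC3A2, -0.078 for SLC7A5 and 0.047 for SLC39A4. Without a batch term it was 0.023 for SLC39A4. With single libraries left out, SLC39A4 ran from -0.065 to 0.026, SLC7A11 ran from -0.274 to 0.081 and SLC7A5 ran from -0.011 to 0.295. The cause of these was not tested.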
